A study of Mus musculus with 144 samples.

Results

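Iron and metal handling in the liver was followed through 10 genes of the 51912 in the gene table: the transferrin gene Trf, the transferrin receptor genes Tfrc and Tfr2, the ferritin subunit genes Fth1 and Ftl1, the iron exporter gene Slc40a1, the hepcidin genes Hamp and Hamp2, and the metallothionein genes Mt1 and Mt2. They were chosen by name, and all 10 had enough counts to be tested in every comparison. RNA came from livers of male C57BL/6J mice kept in alternating 12 h light and 12 h dark periods, fed freely, and was read by 3′ mRNA sequencing (QuantSeq), which counts tags next to the poly(A) tail. Wild-type livers gave total, nuclear and polysomal RNA, and total RNA was also taken from Bmal1-/- mice, which lack the clock transcription factor BMAL1. Each series held 36 libraries, with 6 replicates per zeitgeber time (ZT, the hours since the lights came on), at 6 times: ZT2, ZT6, ZT10, ZT14, ZT18 and ZT22. Nuclear RNA was taken from nuclei spun through sucrose, and polysomal RNA from sucrose gradient fractions of tissue ground in cycloheximide. The labels give neither the age of the mice nor the way the Bmal1 allele was made, and they do not say that replicates were separate animals, so the p-values measure only the spread between these libraries.

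Iron travels in plasma bound to transferrin, which hepatocytes secrete, and enters cells through the receptor encoded by Tfrc. Inside the cell it is stored in shells of ferritin heavy and light chains, and it leaves through ferroportin, the product of Slc40a1. Hepatocytes also make hepcidin, a hormone that brings about the breakdown of ferroportin, and they raise it through bone morphogenetic protein (BMP) signals and inflammatory signals; Tfr2 is part of that sensing machinery. Iron regulatory proteins bind a hairpin in ferritin mRNAs and hold back their translation when iron is scarce, and bind hairpins in Tfrc mRNA and protect it from decay. Metallothioneins are small cysteine-rich proteins that bind zinc and copper, and their genes respond to zinc, glucocorticoids and fasting.

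The promoters of the hepcidin pair and of the metallothionein pair are printed here. Whether they bear on the polysomal values of the first pair or on the shared variation of the second was not tested. Each run holds the 250 bases before an annotated transcript start, 5′ to 3′ on the gene's strand, from RefSeq on GRCm38.p6. Capitals mark GGCGCC (the BMP-responsive element) and TTCNNNGAA (the form bound by STAT factors) in the hepcidin pair, and TGCACNC or TGCGCNC (the core of the metal response element) in the metallothionein pair, each searched on both strands.
Hamp, chr7:30944030-30944279, minus strand: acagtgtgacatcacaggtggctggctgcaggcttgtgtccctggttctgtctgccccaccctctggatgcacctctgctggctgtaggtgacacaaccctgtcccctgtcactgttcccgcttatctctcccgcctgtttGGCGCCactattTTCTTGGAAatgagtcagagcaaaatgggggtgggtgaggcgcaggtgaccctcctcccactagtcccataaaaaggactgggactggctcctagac
Hamp2, chr7:30924182-30924431, minus strand: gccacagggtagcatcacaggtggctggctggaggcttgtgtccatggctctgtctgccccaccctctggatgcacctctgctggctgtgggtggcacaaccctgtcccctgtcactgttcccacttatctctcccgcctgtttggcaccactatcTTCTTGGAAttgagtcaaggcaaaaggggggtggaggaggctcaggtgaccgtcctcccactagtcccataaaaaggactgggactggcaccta
Mt1, chr8:94178839-94179088, plus strand: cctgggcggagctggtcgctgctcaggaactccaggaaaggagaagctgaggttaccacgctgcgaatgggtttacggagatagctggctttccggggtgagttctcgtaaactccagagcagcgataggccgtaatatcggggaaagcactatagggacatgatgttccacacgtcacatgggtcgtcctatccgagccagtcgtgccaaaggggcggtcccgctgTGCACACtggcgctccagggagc
Mt2, chr8:94172368-94172617, plus strand: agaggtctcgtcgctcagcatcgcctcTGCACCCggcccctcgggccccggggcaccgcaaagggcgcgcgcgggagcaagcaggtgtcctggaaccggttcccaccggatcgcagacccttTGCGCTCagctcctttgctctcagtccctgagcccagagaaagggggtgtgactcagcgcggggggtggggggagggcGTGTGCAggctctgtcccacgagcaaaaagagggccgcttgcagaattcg

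The Hamp and Hamp2 windows were identical at 227 of 253 aligned positions, or 89.72%. Both held TTCNNNGAA, at -97 to -89 in Hamp and at -94 to -86 in Hamp2, counted back from -1 at the base before the start. GGCGCC stood at -109 to -104 in Hamp only; the bases of Hamp2 aligned to it were GGCACC. The Mt1 and Mt2 windows were identical at 124 of 268 aligned positions, or 46.27%. The 2 windows are unlike in place. The Mt2 window ends at the annotated gene start, while the Mt1 window runs past its own (94178883), as its transcript start lies inside the annotated gene. Their identity and matches therefore do not compare like stretches, and the Mt1 window is not all of its promoter. Mt1 held TGCACNC once, at -23 to -17. Mt2 held it at -223 to -217 and at -50 to -44, the latter on the opposite strand and so printed as GTGTGCA, and held TGCGCNC at -128 to -122.

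Of the 32851 promoter windows of this length in the RefSeq table, 9.586% held GGCGCC, 7.02% held TTCNNNGAA and 21.41% held TGCACNC or TGCGCNC. The table had windows for 8 of the 10 genes. CACGTG, the E-box that BMAL1 binds with its partner CLOCK, was in 6.021% of all windows and in 0 of the 12 windows of these 8 genes. The Tfrc window held TGCGCNC at 2 overlapping places, -53 to -47 and -50 to -44, and GGCGCC at -89 to -84. A match is a description of letters and not a site in use, and a missing match covers only this window.

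Library totals over all genes lay between 1662449 and 14281894 counts, with a median of 6431391.0. Hepatocyte markers (Alb, Apoa1, Ttr, Cps1, Cyp2e1, Serpina1c) were counted in all 4 series, with a summed median of 80830 CPM (counts scaled to parts per 1000000 of a library's total) in wild-type total RNA. Arntl, which encodes BMAL1, averaged 11.5 CPM ± 2.98 (SD, n = 36) over the Bmal1-/- libraries, while the wild-type total RNA average was 6.74 CPM ± 5.40 (SD, n = 36); a 3′ tag outside the deleted part does not check the allele. Wild-type total RNA replicate 4 at ZT2 and wild-type polysomal RNA replicate 1 at ZT22 stood apart, with mean correlations with their group of 0.86 and 0.846. Although all mice are labelled male, 4 ZT22 libraries held Xist, a transcript of the inactive X chromosome, at 165.3 to 4363 CPM, against at most 5.67 CPM in the other libraries. They were replicate 5 of wild-type total and of nuclear RNA, replicate 1 of polysomal RNA and replicate 6 of Bmal1-/- RNA, and where leaving out these libraries ends a call, that is given beside the result. In whole liver, fewer cells of a type and less RNA per cell cannot be told apart.

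Tfrc, the gene of the main transferrin receptor (chr16:32608896-32632794), was the gene of the 10 with a daily rhythm in wild-type total RNA. It was lowest at ZT6, where the 6 libraries ran from 5.15 to 15.9 CPM with a median of 9.91 CPM, and highest in the dark phase. At ZT14 they ran from 20.81 to 34.06 CPM with a median of 29.4 CPM. Every ZT14 library was above every ZT6 library. At ZT10 the libraries spread from 4.98 to 24.7 CPM, and at ZT22 from 8.22 to 40.06 CPM, so these times overlapped both extremes. The value of 40.06 CPM came from the ZT22 library with Xist.

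A 24 h cosine fitted to the 36 libraries rose from trough to peak by 1.33 on the log2 scale (SE 0.27), with a peak at ZT17.9 and an adjusted p of 0.00177. Tfrc was thus 1 of 10 genes with a rhythm, where 18.9% of the 11964 genes tested passed. Nuclear RNA showed a rhythm of 1.11 (log2 peak to trough, SE 0.23) with a peak at ZT18.0 (adjusted p 0.00543), in 1 of 10 genes against 5.99% of all genes tested. Polysomal RNA showed one of 1.20 (SE 0.30) with a peak at ZT18.2 (adjusted p 0.0312), where 2 of 10 genes and 7.9% of all genes tested passed. The 3 fractions thus peaked within the same part of the dark phase. As the fractions may come from the same livers, these are not shown to be 3 separate readings.

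The nuclear call for Tfrc was lost without replicate 5 (adjusted p 0.0569) and in replicates 1 to 3 alone. The polysomal call was lost without replicate 2, 3, 4 or 6. The wild-type total RNA call held under every alternative tried.

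In Bmal1-/- total RNA the Tfrc means lay between 24.01 and 28.7 CPM at all 6 times. At ZT6 the Bmal1-/- libraries ran from 13.2 to 41.55 CPM with a median of 24.1 CPM, and 1 of the 6 lay within the wild-type range at that time. The fitted rhythm was 0.16 (log2 peak to trough, SE 0.24; adjusted p 0.9999), and 0 of the 10 genes had a rhythm in Bmal1-/- RNA, where 0.00825% of genes tested passed. DESeq2 called 0 genes of all tested, and 491 genes were at an unadjusted edgeR p under 0.05.

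The difference between the 2 rhythms of Tfrc was 1.32 (log2, SE 0.36; adjusted p 0.0485), in 1 of 10 genes against 5.18% of the 12082 genes tested. That call was close to the threshold: it was lost when any replicate number was left out (adjusted p from 0.0764 to 0.159) and without the 4 libraries with Xist (0.0551), and was kept without replicate 4 of ZT2 (0.0260). At single times, Tfrc was higher in Bmal1-/- at ZT6 by 1.296 (log2, SE 0.33; adjusted p 0.00487); without replicate 6 the difference at ZT6 was 0.97 (adjusted p 0.0776).

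**Figure D1:**
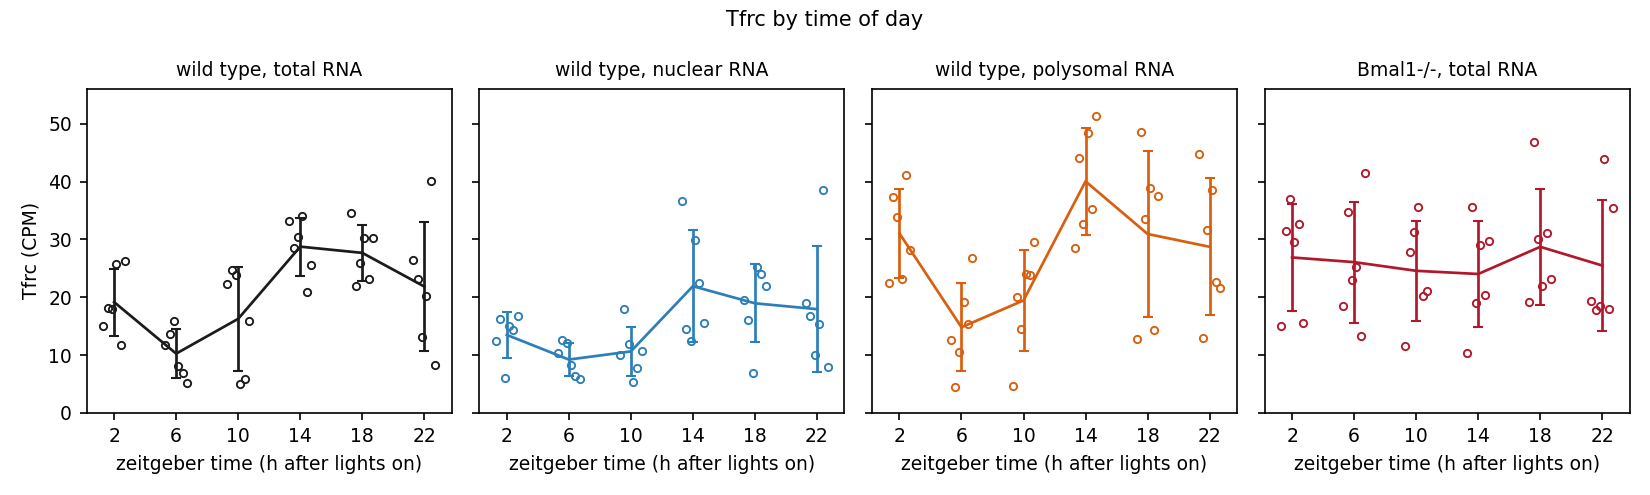
Tfrc level in CPM (vertical axis) at each zeitgeber time in hours (horizontal axis), with 1 panel per series; points are libraries, lines join the means of 6 libraries and bars are the SD. The wild-type panels dip at ZT6 (mean 10.2 CPM in total RNA) and rise at ZT14 (mean 28.7 CPM in total RNA), while the Bmal1-/- means stay between 24.01 and 28.7 CPM.

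Over the day, Tfrc ran from 4.98 to 40.06 CPM (median 22.1 CPM) in wild-type total RNA, against 10.3 to 46.8 CPM (median 24.2 CPM) in Bmal1-/- RNA. The highest wild-type value was that of the ZT22 library with Xist. The 2 groups overlapped at each time. Its daily mean level was higher in Bmal1-/- by 0.32 (log2, SE 0.13; adjusted p 0.0386), at 5 of 6 times, a call that was lost without replicate 2, 3, 4, 5 or 6 (adjusted p from 0.0578 to 0.162). Within the wild type, Tfrc was lower in nuclear than in total RNA by -0.50 (log2, SE 0.12; adjusted p 0.000130) and higher in polysomal than in total RNA by 0.37 (log2, SE 0.14; adjusted p 0.0133). Its polysomal median was 27.45 CPM and its nuclear median 14.4 CPM, so that its order by median was nuclear, total, Bmal1-/- total and polysomal. The polysomal call was lost with median-ratio scaling (0.27, adjusted p 0.0724), with DESeq2 (adjusted p 0.0638), without replicate 4 (0.0625) or replicate 6 (0.0777), and in replicates 1 to 3 alone (0.06, adjusted p 0.787).

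The genes whose level over the 36 wild-type total RNA libraries was most like that of Tfrc were Ppp1r3b (Pearson r 0.82), a glycogen-targeting subunit of protein phosphatase, Hspa8 (r 0.80), a heat shock cognate chaperone, and Eif1b (r 0.79). Over the 36 Bmal1-/- libraries the same 3 genes had r of 0.20, -0.01 and -0.07. These values describe libraries that share sampling times and carry no test.

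Tfr2, the second receptor gene and part of the hepcidin-controlling complex (chr5:137569822-137588081), ran from 52.3 to 178.3 CPM with a median of 136.1 CPM in wild-type total RNA, against 120.5 to 257.0 CPM with a median of 158.7 CPM in Bmal1-/- RNA. The lowest wild-type value was that of the ZT2 library that stood apart. At ZT18 every Bmal1-/- library lay above every wild-type library, and at the other times the groups overlapped. The level was higher in Bmal1-/- by 0.16 (log2, SE 0.06; adjusted p 0.0143), with a higher mean at 6 of 6 times; without replicate 5 the adjusted p was 0.0935. Nuclear RNA ran from 96.2 to 399.2 CPM and exceeded total RNA by 0.41 (log2, SE 0.10; adjusted p 0.000143).

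In polysomal RNA Tfr2 had a median of 136.8 CPM and differed from total RNA by -0.07 (log2, 95% interval -0.20 to 0.05, adjusted p 0.279). Under median-ratio scaling that difference was -0.17 (adjusted p 0.0139). Its rhythm in wild-type total RNA was 0.17 (log2 peak to trough; adjusted p 0.571). The genes most like it were Rhot2 (r 0.93), Capns1 (r 0.92) and Psmb4 (r 0.92), with r of 0.79, 0.77 and 0.80 once the ZT2 library was left out.

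Trf, the plasma iron carrier (chr9:103208876-103230286), was the gene that stood out in nuclear RNA. It ran from 9214 to 17290 CPM with a median of 13100 CPM in nuclear RNA, and from 4088 to 7852 CPM with a median of 5610 CPM in total RNA. The 2 fractions did not overlap at any of the 6 times. How many of all genes separate in this way was not counted. The nuclear excess was 1.23 (log2, SE 0.08; adjusted p 7.06e-24), a 2.35-fold difference. Polysomal RNA ran from 3091 to 9376 CPM with a median of 5864 CPM and differed from total RNA by 0.05 (log2, 95% interval -0.09 to 0.18; adjusted p 0.535). At ZT2 all polysomal libraries (6613 to 8322 CPM) lay above all total RNA libraries (4359 to 6216 CPM), and at the other times they overlapped.

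Without BMAL1, Trf ran from 3081 to 10630 CPM with a median of 5035 CPM, overlapping the wild type at every time. Its level was lower by -0.19 (log2, SE 0.07; adjusted p 0.0174), with a lower mean at 5 of 6 times. The call was lost without replicate 1 (adjusted p 0.0674) or replicate 2 (0.138). Its rhythm missed the threshold in total RNA (0.32, log2 peak to trough, peak at ZT0.09; adjusted p 0.0864) and in polysomal RNA (0.57, peak at ZT2.0; adjusted p 0.0619). Without the ZT2 library that stood apart the total RNA rhythm was 0.34 (adjusted p 0.0455). The gene most like Trf was Hpx (r 0.68), which encodes the plasma heme carrier hemopexin.

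The ferritin genes shared a direction in all 3 comparisons and were the genes furthest below total RNA in polysomes. Fth1, the heavy chain with the iron-oxidising centre (chr19:9980600-9985111), ran from 659.3 to 1460 CPM with a median of 981.2 CPM in wild-type total RNA. Polysomal RNA ran from 92.55 to 749.2 CPM with a median of 208.1 CPM. At each of the 6 times, every polysomal library lay below every total RNA library. The share of all genes that separate so, in this or any other comparison, was not counted. The level was lower by -2.06 (log2, SE 0.12, 95% interval -2.29 to -1.82; adjusted p 2.27e-25), a 4.16-fold difference.

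Ftl1, the light chain that aids mineral formation (chr7:45457944-45459886), ran from 16.7 to 1345 CPM with a median of 844.4 CPM in total RNA and from 140.4 to 802.8 CPM with a median of 375.9 CPM in polysomal RNA. The value of 16.7 CPM came from the ZT2 library that stood apart. The fractions did not overlap at ZT10 and ZT14 and overlapped at the other times. Ftl1 was lower in polysomal RNA by -1.12 (log2, SE 0.15; adjusted p 2.55e-10). The heavy chain gene made up 55.2% ± 8.67 (SD, n = 36) of the tags of both genes in total RNA, 54.2% ± 7.32 in nuclear RNA and 37.4% ± 7.34 in polysomal RNA.

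In nuclear RNA Fth1 was lower than in total RNA by -0.56 (log2, SE 0.09; adjusted p 1.58e-07) and Ftl1 by -0.52 (log2, SE 0.16; adjusted p 0.00231), both with lower means at 6 of 6 times. Across the 10 genes, 6 were called in nuclear RNA, where 83.8% of the 11864 genes tested were called (41.6% higher and 42.1% lower), and 6 in polysomal RNA, where 76% of the 11556 genes tested were called (38.8% higher and 37.2% lower). Both shares of the 10 lie below the background. The median of the 10 changes was -0.32 in nuclear RNA and 0.21 in polysomal RNA (log2), beside medians over all genes tested of -0.01 and 0.02.

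**Figure D2:**
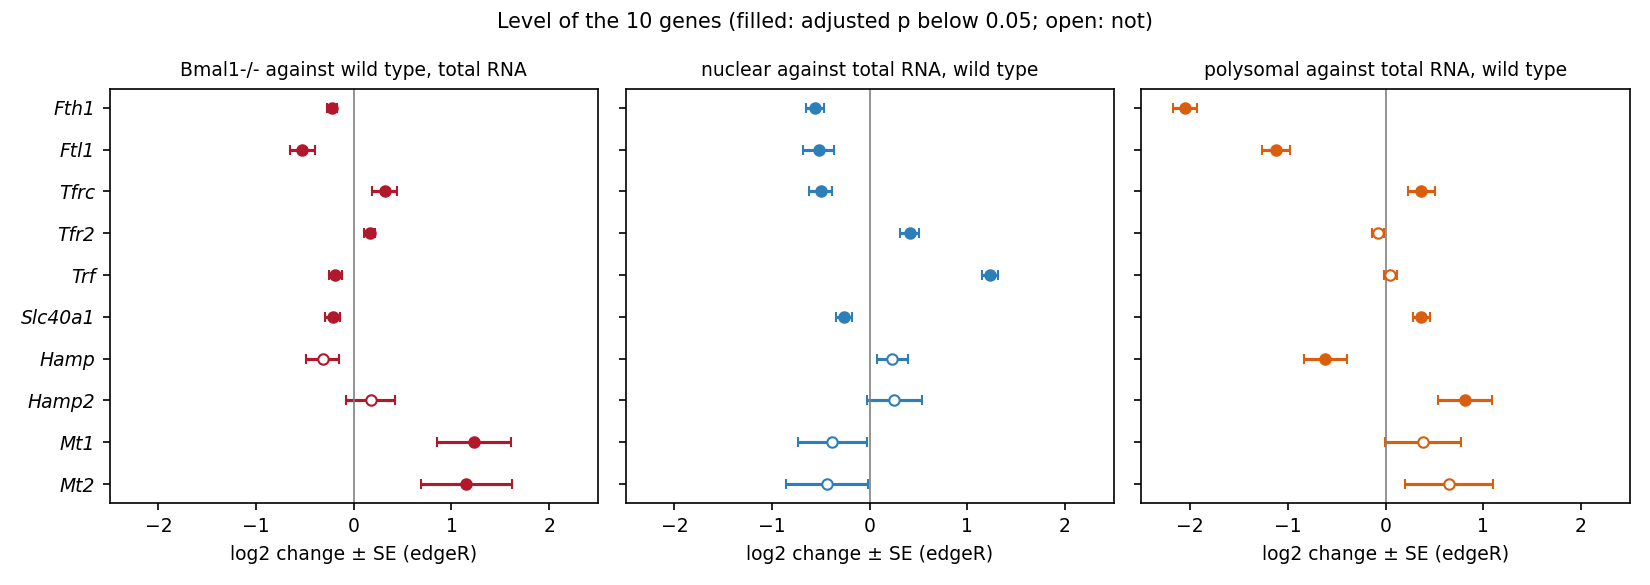
Change in level of each of the 10 genes (log2, horizontal axis) in Bmal1-/- against wild-type total RNA, nuclear against total RNA and polysomal against total RNA; points are edgeR estimates, bars are the SE and filled points have an adjusted p below 0.05. Trf lies furthest to the right in nuclear RNA (1.23), Fth1 furthest to the left in polysomal RNA (-2.06) and Mt1 and Mt2 furthest to the right in Bmal1-/- RNA (1.23 and 1.15).

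Of the 10 genes, 8 differed in daily mean level between Bmal1-/- and wild-type total RNA, 4 higher and 4 lower, where 44.1% of the 12082 genes tested were called (22.4% higher and 21.7% lower). The higher ones were Mt1, Mt2, Tfrc and Tfr2, and the lower ones were Fth1, Ftl1, Trf and Slc40a1. The count of 8 fell to 4 without replicate 2, to 5 without replicate 3 and to 4 when all 4 series shared 1 fit. The median of the 10 changes was -0.01 (log2), beside 0.01 over all genes tested.

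Ftl1 in Bmal1-/- RNA ran from 387.8 to 842.0 CPM with a median of 637.7 CPM. All its Bmal1-/- libraries lay below all wild-type libraries at ZT10 and ZT14, and the mean was lower at 6 of 6 times. The difference was -0.53 (log2, SE 0.13; adjusted p 0.000397). Fth1 in Bmal1-/- RNA ran from 770.8 to 1241 CPM with a median of 875.2 CPM and overlapped the wild type at every time. Its difference was -0.23 (log2, SE 0.05; adjusted p 0.000130), and the adjusted p was 0.127 when all 4 series shared 1 fit.

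These 2 calls held without any single replicate number and in replicates 1 to 3 and 4 to 6 taken alone, which was not the case for the other 6 called genes. Kupffer cells are the liver macrophages that recycle iron. Of 9 of their markers, 8 were lower in Bmal1-/- RNA, where 21.7% of all genes tested were lower. The summed level of the 9 ran from 127.8 to 545.2 CPM (median 263.5) against 173.5 to 1009 CPM (median 304.5) in the wild type, with 0 markers at a median of 0. In nuclear RNA 3 of the 9 were higher and 4 lower, and in polysomal RNA 3 were higher and 3 lower. Of 5 erythroid markers 4 were lower in Bmal1-/- RNA, with a summed level of 27.7 to 5469 CPM (median 1464) against 546.2 to 13130 CPM (median 2585). In polysomal RNA 4 of the 5 were higher (2157 to 20820 CPM, median 8852), where 38.8% of all genes tested were higher. The part of either cell type in the ferritin values was not tested.

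Fth1 and Ftl1 have many processed copies in the genome. The table listed 14 other genes whose symbols begin with Fth or Ftl, and their tags amounted to a median of 0.205% of all ferritin tags in wild-type total RNA and 0.395% in polysomal RNA. How the authors' counting split or dropped tags that match several copies is not given, and copies under other symbols were not searched. These shares therefore do not limit how uncertain the 2 ferritin values are. The gene most like Ftl1 was Gm22133, with r of 0.996 over the wild-type total RNA libraries (0.987 over the Bmal1-/- libraries); whether the 2 symbols share tags was not tested. The genes most like Fth1 were Apoa2 (r 0.82), an apolipoprotein gene, Ei24 (r 0.77) and Ndufa7 (r 0.76), with r of 0.74, 0.66 and 0.65 without the ZT2 library.

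After the time-point means were subtracted, Fth1 and Ftl1 correlated over the 36 wild-type total RNA libraries with Pearson r 0.65 and Spearman rho 0.54 (permutation p 0.00017 and 0.00143; adjusted over 12 relations 0.00068 and 0.00504). Without the 2 libraries farthest out on Fth1 r was 0.54, and without the ZT2 library it was 0.55. In replicates 1 to 3 alone r was 0.35 (adjusted p 0.492) and in replicates 4 to 6 alone 0.81 (adjusted p 0.0172). In Bmal1-/- RNA r was 0.39 and rho 0.39 (permutation p 0.0553 and 0.0472; adjusted 0.104 and 0.0916).

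Slc40a1, the exporter gene (chr1:45908070-45926532), ran from 39.2 to 122.3 CPM with a median of 68.8 CPM in wild-type total RNA, against 54.2 to 160.1 CPM with a median of 91.9 CPM in polysomal RNA. The fractions overlapped at every time, and the mean was higher in polysomes at 6 of 6 times. The difference was 0.37 (log2, SE 0.08, adjusted p 5.77e-05). It was uneven between same-numbered sets of replicates. In replicates 1 to 3 the means were 79.98 CPM in total and 84.96 CPM in polysomal RNA. In replicates 4 to 6 they were 61.74 and 105.3 CPM. Same-numbered total and polysomal libraries had a mean r of -0.13, so a set need not hold the same livers in both fractions. With the sets crossed, 79.98 CPM stood against 105.3 CPM and 61.74 CPM against 84.96 CPM, higher in polysomes each time. Nuclear RNA had a median of 57.5 CPM and lay below total RNA by -0.26 (log2, SE 0.08; adjusted p 0.00230), which without replicate 3 was -0.19 (adjusted p 0.0597).

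Bmal1-/- RNA ran from 35.8 to 106.9 CPM with a median of 64.1 CPM, and Slc40a1 was lower than in the wild type by -0.22 (log2, SE 0.08; adjusted p 0.0201). That call was lost without replicate 2 (adjusted p 0.224) or replicate 3 (0.168), and in replicates 4 to 6 alone the difference turned to 0.023 (adjusted p 0.908). No rhythm passed the threshold for Slc40a1 in any series (adjusted p from 0.161 to 0.9999). Ordered by median, Slc40a1 ran from nuclear through Bmal1-/- total and wild-type total to polysomal RNA. With time-point means subtracted, Slc40a1 and Tfrc had r 0.31 and rho 0.34 in wild-type total RNA (permutation p 0.0889 and 0.0621; adjusted 0.119 and 0.0932). Over the Bmal1-/- libraries r was -0.39 and rho -0.33 (permutation p 0.0288 and 0.0711; adjusted 0.0691 and 0.0949). That r passed the threshold without the Xist library (-0.46, adjusted p 0.0219) and in replicates 1 to 3 alone (-0.67, adjusted p 0.0149), but not in replicates 4 to 6 (-0.35, adjusted p 0.454). The genes most like Slc40a1 in wild-type total RNA were Tox, Adnp and Nab1 (r 0.78, 0.78 and 0.77).

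Hamp and Hamp2, the hepcidin genes (chr7:30942368-30944029 and chr7:30922372-30924181), had fitted differences of opposite sign in polysomal against total RNA. Hamp ran from 49.87 to 644.9 CPM with a median of 310.6 CPM in wild-type total RNA, against 12.9 to 904.9 CPM with a median of 173.8 CPM in polysomal RNA. The mean was lower in polysomes at 6 of 6 times, with overlap at each. The difference was -0.62 (log2, SE 0.22; adjusted p 0.00859), and it was -0.49 without replicate 2 (adjusted p 0.0576) and -0.48 without replicate 3 (adjusted p 0.0634).

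Hamp2 ran from 29.8 to 1268 CPM with a median of 114.6 CPM in total RNA and from 46.5 to 3225 CPM with a median of 189.4 CPM in polysomal RNA. The highest value of each fraction came from a ZT22 library with Xist; without those libraries the highest were 428.6 and 1261 CPM. Hamp2 was higher in polysomes by 0.82 (log2, SE 0.28, adjusted p 0.00708), with a higher mean at 6 of 6 times. Without the Xist libraries the difference was 0.80 (adjusted p 0.00251). At ZT2 the polysomal median was below that of total RNA (117.3 against 153.1 CPM), and at the other times it was above. In replicates 1 to 3 the polysomal median was 95.49 CPM against 157.4 CPM in total RNA. In replicates 4 to 6 it was 244.3 CPM against 71.85 CPM. With the sets crossed, the polysomal medians were 244.3 against 157.4 CPM and 95.49 against 71.85 CPM. With replicate number and time point together as a block the call was lost. Same-numbered total and polysomal libraries had a mean r of -0.13, so neither the sets nor this block need compare the same livers. Without replicate 1 the difference was 0.62 (adjusted p 0.0588) and without replicate 6 it was 0.67 (adjusted p 0.0505). Hamp2 made up 33.4% ± 19.8 (SD, n = 36) of the tags of the pair in total RNA, 31.9% ± 19.8 in nuclear RNA and 53.4% ± 23.2 in polysomal RNA. The 2 genes are close paralogs, and how the authors' counting treated tags that match both is not given, so each level is uncertain to that extent.

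**Figure D3:**
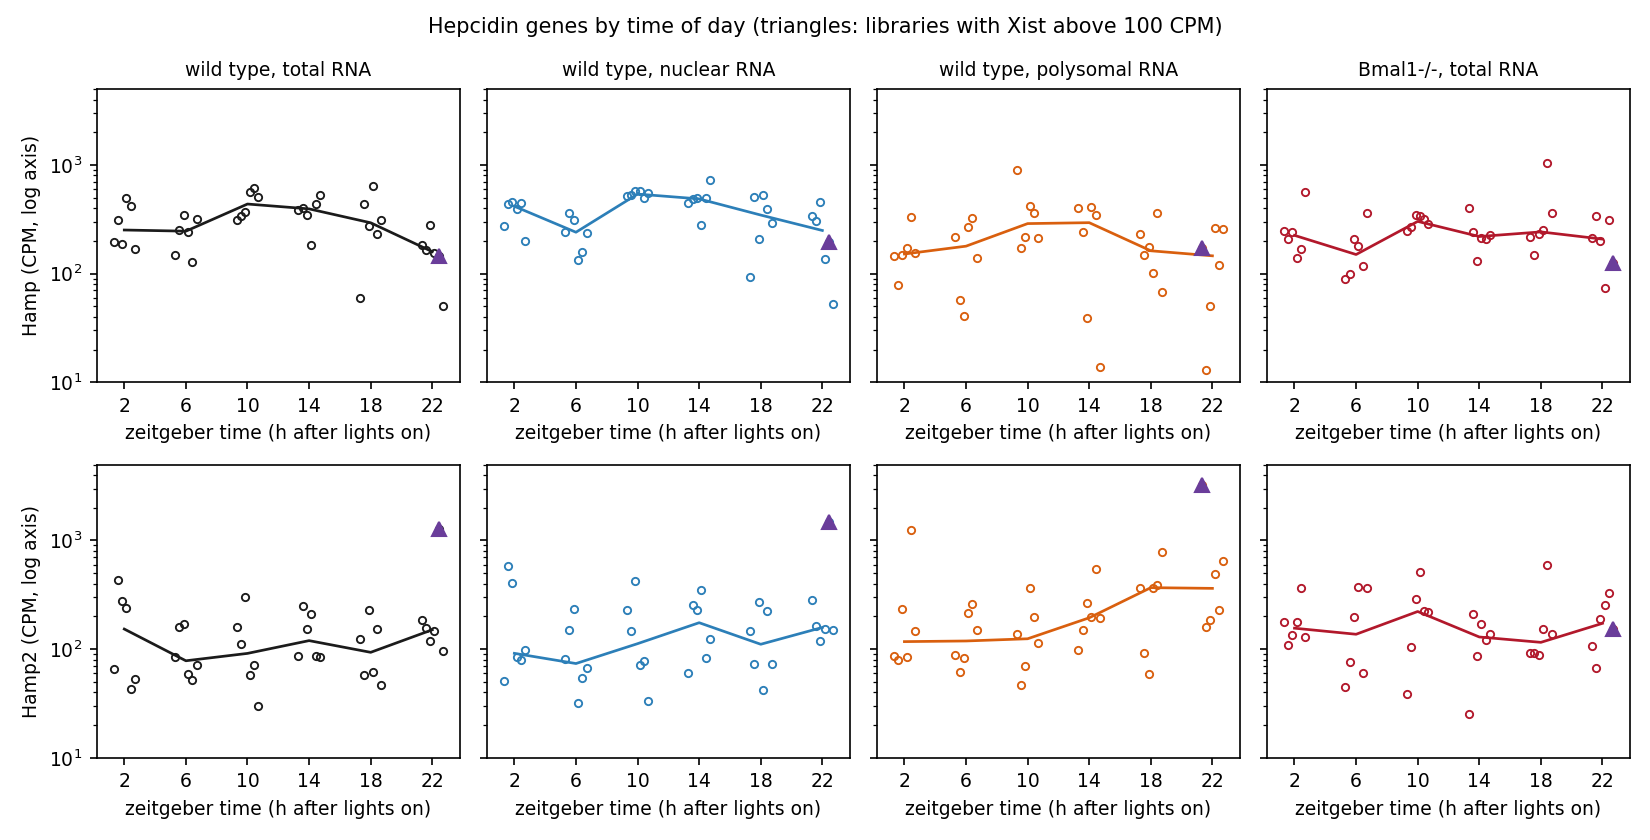
Hamp (upper row) and Hamp2 (lower row) in CPM on a log axis at each zeitgeber time in hours, with 1 column per series; points are libraries, lines join the medians of 6 libraries, and triangles are the libraries with Xist above 100 CPM. Hamp libraries at ZT10 lie between 313.1 and 608.6 CPM in wild-type total RNA, and 3 of the 4 triangles are the highest Hamp2 value of their panel, at 1268, 1489 and 3225 CPM.

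Nuclear RNA held Hamp at a median of 396.8 CPM and Hamp2 at 134.7 CPM. They differed from total RNA by 0.23 (log2, 95% interval -0.08 to 0.55; adjusted p 0.172) and 0.25 (95% interval -0.29 to 0.80; adjusted p 0.394). These tests treat the libraries as independent. With replicate number and time point together as a block, the nuclear difference of Hamp was called. In Bmal1-/- RNA Hamp ran from 74.1 to 1034 CPM with a median of 229.6 CPM and Hamp2 from 25.6 to 590.1 CPM with a median of 146.9 CPM. The differences from the wild type were -0.32 (95% interval -0.65 to 0.01; adjusted p 0.119) and 0.17 (95% interval -0.31 to 0.66; adjusted p 0.607). Both genes overlapped the wild type at every time.

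Over the day, wild-type Hamp was highest at ZT10 (313.1 to 608.6 CPM, median 437.1 CPM) and lowest at ZT22 (49.87 to 279.8 CPM, median 159.3 CPM). Those 2 sets of 6 libraries did not overlap. The fitted rhythm was 0.95 (log2 peak to trough, SE 0.34) with a peak at ZT11.9, and it missed the threshold (adjusted p 0.107). Without the ZT2 library that stood apart it was 1.17 and passed (adjusted p 0.0290). Nuclear and polysomal Hamp peaked at ZT11.7 and ZT11.8, with adjusted p of 0.313 and 0.264.

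Hamp2 had a rhythm call in polysomal RNA of 2.36 (log2 peak to trough, SE 0.59, peak at ZT20.6; adjusted p 0.0223). Without the ZT22 library with Xist it was 1.56 and was not called (adjusted p 0.142). In wild-type total RNA the value was 1.25 (adjusted p 0.153) with that series' Xist library and 0.40 (adjusted p 0.776) without it. The genes most like Hamp2 in wild-type total RNA were Cyp2a22 (r 0.85) and Cyp2b9 (r 0.78), both cytochrome P450 genes, and Nrip1 (r 0.75). Without the Xist library their r was 0.78, 0.68 and 0.71, and Cyp2b9 and Nrip1 were no longer among the 3 highest. Over the Bmal1-/- libraries r was -0.21, 0.42 and 0.004. The genes most like Hamp in wild-type total RNA were Pim3, Nfix and Lin7c (r 0.66, 0.65 and 0.62).

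The 2 hepcidin genes showed no shared variation that passed a test. Their r after subtraction of the time-point means was -0.10 in wild-type total RNA (rho -0.17; permutation p 0.582 and 0.366; adjusted 0.635 and 0.439) and 0.30 in Bmal1-/- RNA (rho 0.35; permutation p 0.0843 and 0.0534; adjusted 0.119 and 0.0916). Id1, a direct target of BMP signals, tracked Hamp in Bmal1-/- RNA with r 0.64 and rho 0.56 (permutation p 0.00049 and 0.00168; adjusted 0.00147 and 0.00504), and r was 0.63 without the 2 libraries farthest out. In replicates 1 to 3 that r was 0.55 (adjusted p 0.244) and in replicates 4 to 6 it was 0.83 (adjusted p 0.0123). In wild-type total RNA r was 0.32 and rho 0.40 (adjusted p 0.104 and 0.0732). Saa1, a gene of the acute phase response, had r with Hamp of -0.12 in the wild type and -0.08 in Bmal1-/- RNA (adjusted p 0.621 and 0.667).

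Mt1 and Mt2, the metallothionein genes (chr8:94178883-94180327 and chr8:94172618-94173567), ranged widely between libraries, and ZT2 was the 1 time at which they were called. In wild-type total RNA at ZT2, Mt1 ran from 3.39 to 32.9 CPM with a median of 12.2 CPM, while in Bmal1-/- RNA it ran from 49.45 to 834.5 CPM with a median of 278.6 CPM. Every Bmal1-/- library lay above every wild-type library. The difference was 4.23 (log2, SE 1.05; adjusted p 0.00504), an 18.7-fold excess, and it was 3.501 without replicate 4 (adjusted p 0.0522).

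Mt2 at ZT2 ran from 1.88 to 11.01 CPM with a median of 3.88 CPM in the wild type and from 5.01 to 216.5 CPM with a median of 122.9 CPM in Bmal1-/- RNA. The groups overlapped, since 2 Bmal1-/- libraries lay within the wild-type range. The difference was 4.37 (log2, SE 1.32; adjusted p 0.0250). It was 4.68 without replicate 3 (adjusted p 0.0536), 4.11 without replicate 4 (adjusted p 0.1003), 3.94 without replicate 6 (adjusted p 0.0701), and 4.24 without only the ZT2 library that stood apart (adjusted p 0.0629).

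Over the 60 tests of 10 genes at 6 times, 5 were called: Mt1, Mt2 and Tfr2 at ZT2, Tfrc at ZT6 and Fth1 at ZT18. The share of all genes called was 9.76% at ZT2, 10.1% at ZT6, 16.4% at ZT10, 9.73% at ZT14, 12.7% at ZT18 and 6.97% at ZT22. Tfr2 at ZT2 was higher by 0.43 (adjusted p 0.0360), and by 0.28 (adjusted p 0.192) without the ZT2 library that stood apart. Fth1 at ZT18 was lower by -0.35 (adjusted p 0.0463), a call lost without any replicate number (adjusted p from 0.0577 to 0.157) and without the Xist libraries (adjusted p 0.0541). Without that ZT2 library 8 tests were called, 4 of them for Ftl1, at ZT10, ZT14, ZT18 and ZT22.

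At the other times Mt1 overlapped between the groups. Its wild-type medians were 127.4 CPM at ZT6, 91.2 CPM at ZT10, 137.3 CPM at ZT14, 27.5 CPM at ZT18 and 109.2 CPM at ZT22. Its Bmal1-/- medians at those times were 137.3, 220.1, 111.1, 203.9 and 148.1 CPM. Over the day Mt1 was higher in Bmal1-/- by 1.23 (log2, SE 0.38, 95% interval 0.49 to 1.97; adjusted p 0.00616), at 5 of 6 times. Mt2 was higher by 1.15 (log2, SE 0.47; adjusted p 0.0394), at 4 of 6 times, and that call was lost without replicate 1, 2, 3, 4 or 6 (adjusted p from 0.0609 to 0.131).

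**Figure D4:**
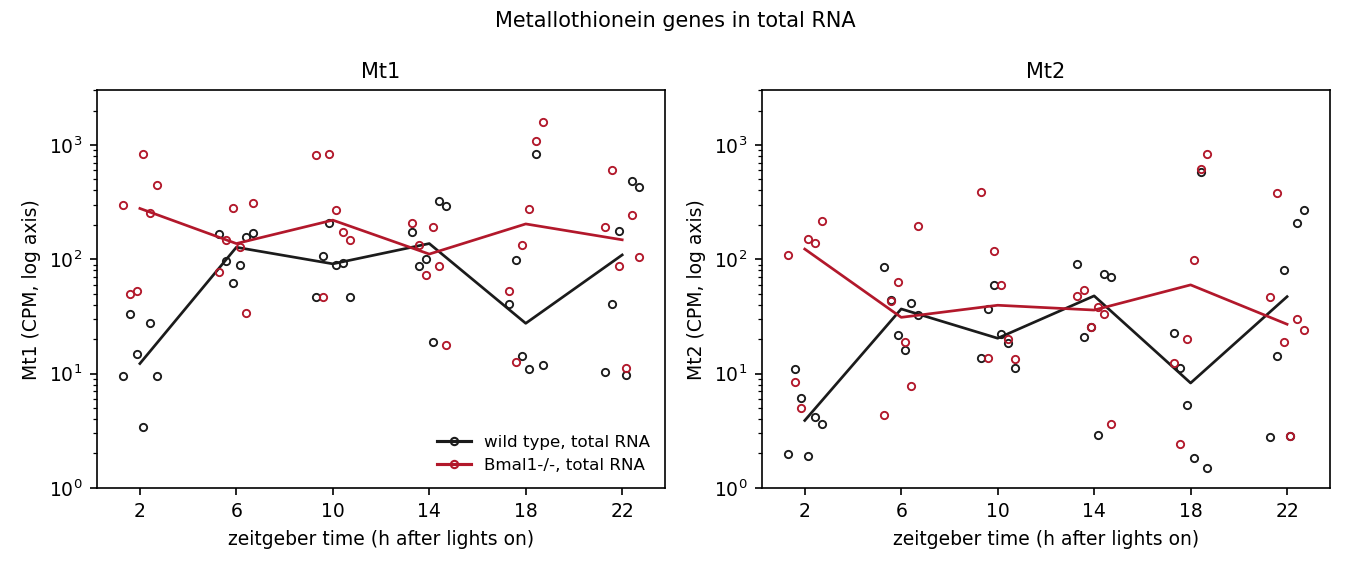
Mt1 (left) and Mt2 (right) in total RNA, in CPM on a log axis, at each zeitgeber time in hours; points are libraries of wild-type (black) and Bmal1-/- (red) mice and lines join the medians of 6 libraries. The Mt1 groups separate at ZT2 (at most 32.9 CPM against at least 49.45 CPM) and overlap at the other 5 times.

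No rhythm passed for either metallothionein gene. In wild-type total RNA the fitted values were 1.47 for Mt1 (log2 peak to trough, SE 0.82, peak at ZT16.4; adjusted p 0.420) and 2.11 for Mt2 (SE 0.95, peak at ZT18.2; adjusted p 0.196). At ZT18 single wild-type libraries ran from 10.99 to 828.4 CPM for Mt1. Mt1 in nuclear RNA ran from 4.67 to 519.9 CPM and in polysomal RNA from 5.94 to 1119 CPM. Against total RNA it differed by -0.38 (95% interval -1.07 to 0.31; adjusted p 0.308) and 0.38 (95% interval -0.38 to 1.14; adjusted p 0.374). Mt2 differed by -0.44 (adjusted p 0.326) and 0.65 (adjusted p 0.187).

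Without replicate 5 both polysomal differences were called (Mt1 0.97, adjusted p 0.0369; Mt2 1.35, adjusted p 0.0122). The 2 genes rose and fell together from library to library. After the time-point means were subtracted, r was 0.95 and rho 0.92 over the 36 wild-type total RNA libraries and 0.94 and 0.95 over the 36 Bmal1-/- libraries. Each permutation p was 1e-05, the smallest the 100000 resamples allow, and 6e-05 after adjustment. Without the 2 libraries farthest out r was 0.93 in both, and within replicates 1 to 3 it was 0.90 and 0.91. Mt2 made up 23.6% ± 8.03 (SD, n = 36) of the tags of the pair in wild-type total RNA, against 21.1% ± 8.97 in Bmal1-/- RNA.

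Beyond each other, the genes most like the metallothioneins in wild-type total RNA were Itih4 (r 0.75 with Mt1 and 0.74 with Mt2), a plasma protein of the acute phase, Hpcal1 (r 0.69 with Mt1) and Fgl1 (r 0.71 with Mt2). Of 11 acute phase genes, 9 differed in Bmal1-/- RNA, 4 higher and 5 lower, where 44.1% of all genes were called. Saa1 fell by 2.68 and Saa2 by 2.59 (log2), while Apcs rose by 1.87.

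Nuclear and polysomal rhythms of the 10 genes did not differ from those of total RNA by the test of the difference. Of the 10 genes, 0 were called in either comparison (lowest adjusted p 0.965), and 0% of all genes tested were called by edgeR in each. At an unadjusted p under 0.05 stood 244 genes in nuclear and 673 in polysomal RNA, and DESeq2 called 0 and 9 genes.

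The position of the poly(A) site was the study's own readout, and it could be tested for 6 of the 10 genes. Fth1 and Tfr2 had 1 site. Hamp and Hamp2 had 2 sites each, with 97.5% ± 1.27 and 91.04% ± 9.15 (SD, n = 36) of their counts at site 2 in wild-type total RNA, and were not tested, while Ftl1, Tfrc, Trf, Slc40a1, Mt1 and Mt2 had 2 or more sites with at least 5% of the gene's counts and enough depth to test. Sites are numbered from 5′ to 3′ within a gene, and use is the share of a gene's site counts. The shares of a gene add up to the whole, so a rise at 1 site comes with a fall elsewhere in the gene. Calls at sites of the same gene, and the numbers of sites higher and lower, are therefore not separate results.

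Nuclear RNA differed from total RNA at all 16 member sites tested, where 78.7% of the 11858 sites tested were called. The clearest case was Slc40a1. Its most used site 4 (chr1:45908136-45908311, minus strand, 66 bases before the annotated gene end) held 53.1% ± 5.50 (SD, n = 36) of its counts in total RNA and 31.8% ± 9.68 in nuclear RNA. Site 5 (chr1:45908069-45908107), which ends at the annotated gene end, held 20.3% ± 2.95 and 29.3% ± 7.91. At a given gene total, site 4 was lower by -0.74 (log2, SE 0.07; adjusted p 4.85e-14) and site 5 higher by 0.52 (log2, SE 0.07; adjusted p 4.02e-09).

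For Tfrc and Mt2 the nuclear counts were gathered more on the most 3′ site. Tfrc site 3 (chr16:32632687-32632796, plus strand) held 74.96% ± 10.4 in total RNA and 89.5% ± 8.51 in nuclear RNA, and site 1 (chr16:32632577-32632606) fell by 1.45 on the log2 scale (SE 0.29; adjusted p 8.63e-06). Mt2 site 3 (chr8:94173338-94173571, plus strand) held 78.1% ± 11.5 and 93.8% ± 6.27, a difference of 0.26 (log2, SE 0.04; adjusted p 1.11e-08). Of the 16 sites, 8 were higher and 8 lower, and edgeR's splicing test called 10 of them. Without the Xist libraries 15 of 18 member sites were called; Mt1 site 2 was then lower by -0.33 (log2, adjusted p 0.0808), against -0.38 with them (adjusted p 0.0495).

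In polysomal RNA 8 of 17 member sites were called, against 70.5% of the 12547 sites tested, and edgeR's splicing test called 2. Without the Xist libraries 6 of 17 were called, and Slc40a1 site 4 went from -0.12 (log2, adjusted p 0.0481) to -0.10 (adjusted p 0.0797). Trf showed the widest difference. Its site 5 (chr9:103208792-103209080, minus strand) held 92.2% ± 2.06 of counts in total RNA and 85.7% ± 4.80 in polysomal RNA, while site 4 (chr9:103210491-103210676), 1615 bases before the annotated gene end, held 5.51% ± 1.70 and 9.97% ± 2.84. Site 4 was higher by 0.85 (log2, SE 0.11; adjusted p 2.22e-10). For Slc40a1, site 5 was higher in polysomes by 0.33 (log2, SE 0.06; adjusted p 5.41e-06).

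Site use in total RNA showed 0 calls over 17 member sites when Bmal1-/- was set against the wild type, where 9.04% of the 13403 sites tested were called. Of the 17, 2 were at an unadjusted p under 0.05, both of Mt2, and edgeR's splicing test called 0. Slc40a1 site 4 held 53.2% ± 7.33 in Bmal1-/- RNA, beside 53.1% ± 5.50 in the wild type (log2 difference 0.01, SE 0.04; adjusted p 0.970). Over the day in wild-type total RNA, 0 of 17 member sites changed their use, with 0 at an unadjusted p under 0.05, where 0.351% of the 13109 sites tested were called. The 3 sites of Tfrc, whose level had a rhythm, had a lowest adjusted p of 0.617.

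**Figure D5:**
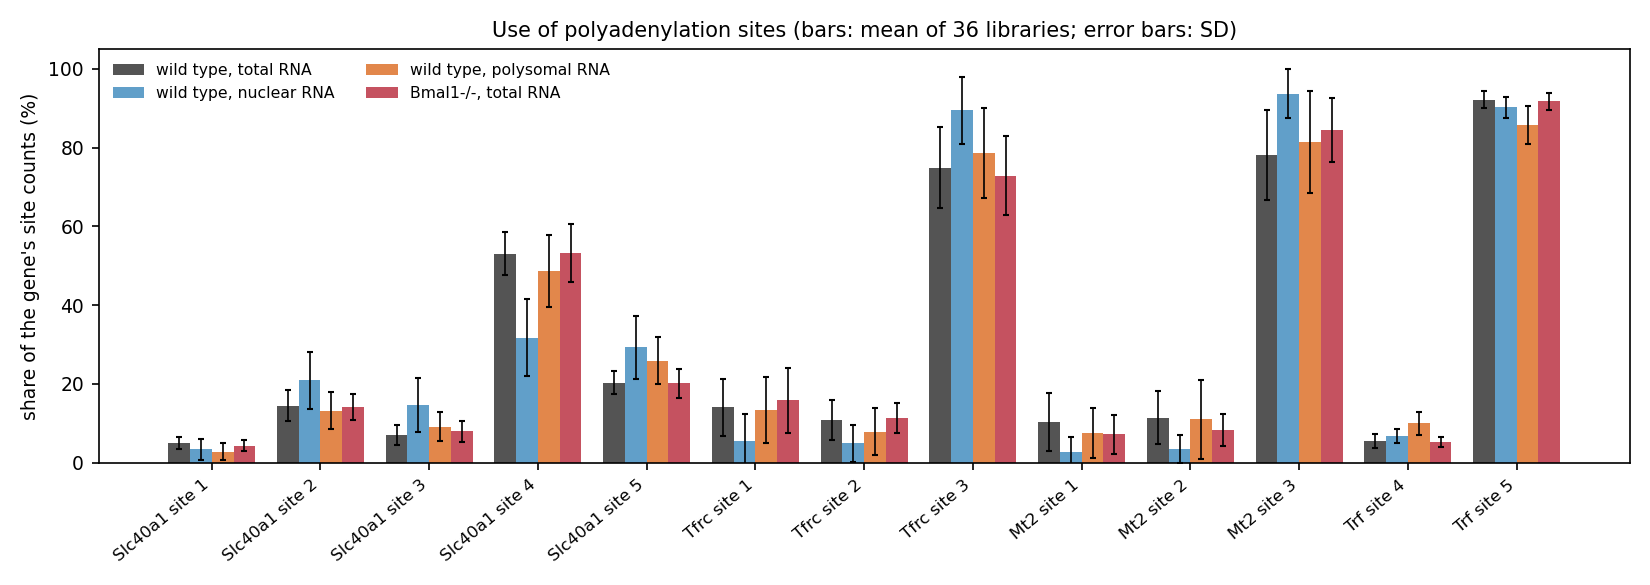
Share of a gene's site counts at each named poly(A) site (percent, vertical axis) in the 4 series; bars are means of 36 libraries and error bars are the SD. The nuclear bars are lower at Slc40a1 site 4 (31.8%) and higher at Tfrc site 3 (89.5%) and Mt2 site 3 (93.8%) than the total RNA bars, and the Bmal1-/- bars lie near the wild-type total RNA bars.

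The other genes of the pathways were read from lists. The shares of all genes called, for reading the counts of these lists, are 44.1% in the Bmal1-/- comparison (22.4% higher and 21.7% lower) and 18.9% for the wild-type rhythm. Of 16 tested genes that control hepcidin, 5 differed in Bmal1-/- RNA, 3 higher and 2 lower, a share below that of all genes. Tmprss6, which encodes the protease that restrains hepcidin, rose by 0.50 (log2, SE 0.09; adjusted p 3.26e-06), from 146.0 CPM ± 30.1 to 219.8 CPM ± 25.2 (SD, n = 36 each). Bmp2, a BMP ligand, rose by 0.34, and Hfe, the hemochromatosis gene, fell by 0.16. The median of the 16 changes was -0.03, beside 0.01 over all genes.

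Of 8 genes of iron sensing and mRNA control, 5 differed in Bmal1-/- RNA, 1 higher and 4 lower. Aco1, which encodes iron regulatory protein 1, fell by 0.62 (log2, SE 0.07; adjusted p 7.83e-11), from 57.07 CPM ± 9.92 to 39.7 CPM ± 9.15. Ncoa4, the receptor that delivers ferritin for breakdown, rose by 0.26. Ireb2, which encodes iron regulatory protein 2, had a wild-type rhythm of 0.53 (log2 peak to trough, peak at ZT5.97; adjusted p 0.00859) that differed in Bmal1-/- RNA (adjusted p 0.0376).

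Of 14 iron and heme transport genes, 9 differed in Bmal1-/- RNA, 4 higher and 5 lower. Cp, which encodes the plasma ferroxidase ceruloplasmin, rose by 1.004 (log2, SE 0.06; adjusted p 2.19e-22), from 1052 CPM ± 236.9 to 2240 CPM ± 332.7. Steap3, the endosomal ferrireductase of the transferrin cycle, fell by 0.58 and had a wild-type rhythm of 1.63 (log2 peak to trough, peak at ZT1.62; adjusted p 3.50e-05). Slc39a14 and Slc39a8, which take up zinc and iron, and Slc11a2 were the other 3 of the 4 genes among 14 with a wild-type rhythm, beside 18.9% of all genes.

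Of 14 zinc and copper genes, 9 differed in Bmal1-/- RNA, 3 higher and 6 lower. Slc30a10, which encodes a manganese exporter, rose by 0.59 and had a wild-type rhythm of 1.77 (log2 peak to trough, peak at ZT22.8; adjusted p 3.48e-09) that differed in Bmal1-/- RNA (adjusted p 1.73e-09). In polysomal RNA 10 of 15 of these genes differed, 8 higher and 2 lower, where 76% of all genes were called. Slc30a1, the zinc exporter, was listed at 67.1 CPM ± 33.9 there and at 0.596 CPM ± 0.329 in total RNA (log2 difference 6.73, SE 0.37; adjusted p 4.85e-25). How the deposited table assigned tags to Slc30a1 in each fraction is not given, and whether so large a difference lies in the counting was not tested.

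In polysomal RNA the lists differed in direction. Of 16 hepcidin control genes 12 were higher and 2 lower, of 8 sensing genes 5 were higher and 0 lower, and of 14 transport genes 8 were higher and 1 lower. Of 11 acute phase genes 1 was higher and 7 were lower, and of 6 hepatocyte markers 0 were higher and 4 lower. Among all genes tested in that comparison 38.8% were higher and 37.2% lower. In nuclear RNA the counts for hepcidin control, sensing and transport genes were 7 higher and 6 lower, 1 higher and 6 lower, and 7 higher and 4 lower, beside 41.6% higher and 42.1% lower among all genes tested. In Bmal1-/- RNA, 0 genes of any of these lists had a rhythm.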

How the data were processed

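The authors deposited raw counts per gene (51912 genes) and per poly(A) site (86780 sites; 29199 in their filtered list, which was used here) for 144 libraries. STAR 2.4.2a, edgeR, HOMER, mm10 and GRCm38.p5 are named in the submitters' processing notes, without their order; how tags matching several genes were counted is not given in the sources used here. The 10 genes and the pathway lists were chosen with earlier results of these data known.

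From the counts, edgeR 4.0.16 (R 4.3.3; TMM scaling, robust quasi-likelihood test, mean of at least 10 counts, Benjamini-Hochberg adjustment over all genes tested, threshold 0.05) compared levels as the mean of 6 time-point means and rhythms as 24 h cosine and sine terms. The SE of a rhythm is that of its peak-to-trough value. Site use was tested with the gene total as an offset, for sites with at least 5% of a gene's counts where the gene's mean count reached 50. CPM are counts divided by a library's gene total and multiplied by 1000000. On simulated counts at the scale of the Bmal1-/- comparison (12082 genes), 92 of 100 genes changed 1.5-fold and 96 of 100 changed 2-fold were called; for the wild-type rhythm (11964 genes) the numbers were 33 and 73 of 100.

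All 10 genes are named in each comparison; of each list, up to 4 called genes with the largest change may be named, and for each of the 10 the 3 genes with the highest r of log2(CPM + 1) over wild-type total RNA. Sites are named if they are the most or second most used of a gene. Within groups, 0 of 360 pairs of libraries were identical, with chi-square over degrees of freedom of at least 4.03. Same-numbered total and nuclear libraries correlated with a mean r of 0.35 (over 0.1 in 34 of 36 pairs), total and polysomal ones with -0.13 and wild-type and Bmal1-/- ones with 0.08. With not every pair over 0.1 and no label tying the numbers to animals, the numbers were not taken to pair samples. Differently numbered total and nuclear libraries had a mean r of -0.07, and 29 of 36 matched best with their own number. Many of these pairs may share a liver, which the p-values of nuclear against total RNA do not take into account. Alternatives were median-ratio scaling, a mean of at least 1 count, DESeq2 1.42.0, a replicate block, replicates 1 to 3 or 4 to 6 alone, 1 fit of all series and leaving out each replicate number. Leaving out wild-type total RNA replicate 4 at ZT2, and the Xist libraries for site use and correlations, was added after seeing the data. No genome was used, so positions are those of the authors' site list and of RefSeq on GRCm38.p6.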

Additional observations from a re-analysis of the deposited data

Results flagged for a closer look

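In 22 of 240 groups of 6 libraries, 1 library lay further from the others than Dixon's limit allows; chance alone gives about 12. Levels are in CPM, followed by the range of the other 5 libraries.

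In wild-type total RNA, replicate 4 at ZT2 held Ftl1 at 16.74 (others 520.2 to 1138) and Tfr2 at 52.29 (others 116.7 to 139.4). Hamp2 at ZT22 was 1268 in replicate 5 of total RNA (others 96.82 to 184.8) and 1489 in replicate 5 of nuclear RNA (others 118.0 to 280.5), both libraries with Xist.

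In nuclear RNA, replicate 1 at ZT2 held Ftl1 at 184.4 (others 600.7 to 973.1) and Trf at 9417 (others 14040 to 16000). Replicate 3 held Tfrc at 6.067 at ZT2 (others 12.42 to 16.82) and at 6.922 at ZT18 (others 16.06 to 25.15), and Mt1 at 192.1 at ZT10 (others 41.63 to 73.51). Replicate 4 held Tfr2 at 100.6 at ZT10 (others 170.2 to 223.6), and at ZT14 Mt1 at 15.74 (others 96.55 to 177.6) and Mt2 at 3.104 (others 24.74 to 56.71). Replicate 5 at ZT18 held Fth1 at 1070 (others 466.9 to 633.1).

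In polysomal RNA, replicate 3 at ZT14 held Mt1 at 24.44 (others 222.0 to 635.5) and Mt2 at 4.267 (others 85.87 to 247.5), and replicate 2 at ZT22 held Fth1 at 525.9 (others 148.0 to 230.9).

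In Bmal1-/- RNA, replicate 5 held Fth1 at 1059 at ZT14 (others 810.1 to 885.1) and at 1092 at ZT22 (others 770.8 to 871.4), and Hamp2 at 590.1 at ZT18 (others 89.18 to 154.8). Replicate 1 held Ftl1 at 388.8 at ZT6 (others 635.1 to 819.9) and Slc40a1 at 83.34 at ZT14 (others 58.51 to 64.26), and replicate 6 at ZT14 held Mt2 at 3.605 (others 25.66 to 54.24).

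The rhythm of Tfrc differed between wild-type and Bmal1-/- total RNA by 1.32 (log2) in the test of the difference itself.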

How the results depend on the processing

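Counts are of the 10 genes called. For the Bmal1-/- level the count of 8 was 5 in replicates 1 to 3, 4 in replicates 4 to 6, 4 with all series in 1 fit and 4 to 7 without 1 replicate number. The nuclear count of 6 was 3 in replicates 4 to 6 and 5 to 6 without 1 number. The polysomal count of 6 was 3 in replicates 1 to 3 and 4 to 8 without 1 number. The wild-type rhythm count of 1 was 3 without replicate 4 of ZT2 and 1 to 2 without 1 number. The nuclear rhythm count of 1 was 0 in replicates 1 to 3 and 0 to 1 without 1 number. The polysomal rhythm count of 2 was 0 in replicates 1 to 3, 1 in replicates 4 to 6, 1 without the Xist libraries, 4 with all series in 1 fit and 0 to 2 without 1 number. The rhythm difference of Tfrc was lost, leaving 0, with a mean of at least 1 count, in either set of 3 replicates, without the Xist libraries, with all series in 1 fit and without any 1 number. The 5 calls at single times were 3 with a mean of at least 1 count, 2 in replicates 1 to 3, 2 in replicates 4 to 6, 8 without replicate 4 of ZT2 and 1 to 6 without 1 number. The cause of these changes was not tested; sets of 3 replicates hold fewer samples.

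Changes of sign occurred only where a value was not called, apart from Slc40a1 in Bmal1-/- RNA (0.023 in replicates 4 to 6). In replicates 1 to 3, Hamp2 in Bmal1-/- RNA was -0.60 and nuclear Mt1 and Mt2 were 0.20 and 0.30. In replicates 4 to 6, nuclear Hamp and Hamp2 were -0.14 and -0.056, and polysomal Trf, Mt1 and Mt2 were -0.11, -0.41 and -0.031. Polysomal Trf was -0.046 with median-ratio scaling and with DESeq2. Without 1 replicate number, the Bmal1-/- Hamp2 value ran from -0.021 to 0.36, nuclear Mt2 from -0.58 to 0.0062, and in polysomal RNA Tfr2 from -0.15 to 0.018, Trf from -0.043 to 0.12, Mt1 from -0.41 to 0.97 and Mt2 from -0.087 to 1.35.

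Of correlations, Hamp with Hamp2 in the wild type was 0.066 and 0.18 in the 2 sets of replicates, Fth1 with Ftl1 0.35 in replicates 1 to 3, Hamp with Id1 0.72 in replicates 4 to 6, and Tfrc with Slc40a1 -0.036 without subtracted means. In Bmal1-/- RNA, Tfrc with Slc40a1 was -0.67 in replicates 1 to 3 and -0.46 without the Xist library, and in replicates 1 to 3 Hamp with Id1 was 0.55 and Hamp with Saa1 0.19. Member sites called by edgeR's splicing test were 10 of 16 in nuclear and 2 of 17 in polysomal RNA.

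With the replicate number as a block, 7 of the 10 genes were called in Bmal1-/- RNA, Tfrc being lost (adjusted p 0.0521), 1 member site was called where 0 had been, and the polysomal rhythm count over all genes was 1505 against 845. With number and time point together as the block, nuclear Hamp was called (0.23, adjusted p 0.0146), making 7 of 10, and polysomal Hamp2 was not (0.67, adjusted p 0.0534), making 5 of 10. Same-numbered libraries matched best in 29 of 36 cases for total and nuclear RNA, 0 of 36 for total and polysomal RNA and 13 of 36 for wild-type and Bmal1-/- RNA. The block by number and time point therefore need not match livers between total and polysomal RNA.

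Over all genes, the wild-type rhythm count of 2260 was 1341 and 621 in the 2 sets of replicates and 1017 with all series in 1 fit. The nuclear count of 669 was 174 and 237, and 359 without replicate 5. The polysomal count of 845 was 115 in replicates 1 to 3, 2733 with all series in 1 fit and 425 without replicate 6. The Bmal1-/- count of 1 was 10 with a mean of at least 1 count and 6 with all series in 1 fit. The rhythm difference count of 626 was 236, 200 and 186, and 288 without replicate 5. The polysomal rhythm difference count of 0 was 54 with a mean of at least 1 count and 22 with all series in 1 fit. The ZT2 count of 1179 was 673 without wild-type replicate 4. Low tag numbers limit Mt1, Mt2 and Tfrc, which were under 5 CPM in their lowest libraries.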

Other observations

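Of 5 bile duct markers only 2, Sox9 and Spp1, had enough counts to test. Both were higher in Bmal1-/- total RNA, where 22.4% of all genes tested were higher. The summed level of all 5 ran from 45.82 to 135.7 CPM (median 73.51) against 16.16 to 66.61 CPM (median 25.69) in the wild type. Sox9 averaged 60.49 CPM against 22.46 CPM. Its own wild-type rhythm was 1.54 (log2 peak to trough, adjusted p 8.85e-05) and differed in Bmal1-/- RNA (adjusted p 0.0298), so it was not a steady marker of cell number here. Erythroid markers rose in polysomal RNA with a median log2 change of 1.76 over 5 markers. Among the neighbours of iron handling, Apcs, which encodes serum amyloid P, went from 69.8 CPM ± 25.3 to 269.4 CPM ± 186.0 (SD, n = 36 each) in Bmal1-/- RNA, while Saa1 went from 185.6 CPM ± 291.0 to 35.3 CPM ± 92.7. In nuclear RNA Tmprss6 stood at 432.6 CPM ± 133.9 against 146.0 CPM ± 30.1 in total RNA, and Bmp2 at 13.3 CPM ± 6.36 against 28.5 CPM ± 4.51.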
